A study of Mus musculus with 36 samples.

Results

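The genes followed here make sterols and fatty acids in CD4 T cells of mice: 31 symbols were listed, 18 of the sterol pathway, 9 of fatty acid synthesis and 4 of its regulation and transport. A gene was taken from array rows annotated with its symbol and no other, the row with the highest mean where there were several, and 28 of 31 were found, 16 sterol, 8 fatty acid and 4 regulator genes, out of 22180 genes that could be named this way. None of the 28 had a further row to choose from. All 28 passed the filter on low values and were among the 13082 genes tested. Idi1 and Scd2, found only on probe sets with several symbols, and Acat2 were not analysed here.

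Expression arrays had been run on CD4 T cells from mice labelled TRIM28KO (KO) and from wild-type littermates (WT). TRIM28 is a co-repressor that KRAB zinc-finger proteins bring to DNA. In each genotype there were cultures kept for 72 h on plate-bound anti-CD3 with soluble anti-CD28, in conditions named Th1, Th2, Th17, Treg and Th0. There were also flow-sorted naive cells of each genotype. Each of the 12 groups had 3 samples. The age of the mice, the promoter behind the deletion and the polarizing cytokines are not given in the sources used here. Nothing states that replicates were separate animals, so p-values measure the spread between these samples, which may be technical.

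Acetyl-CoA is the starting point of both routes. Sterol synthesis runs through mevalonate and the isoprenoids to squalene, then through lanosterol to cholesterol, while fatty acid synthesis runs through malonyl-CoA to palmitate, which is elongated and desaturated. The transcription factors SREBP-1 and SREBP-2, encoded by Srebf1 and Srebf2, drive the genes of both routes when sterol in the endoplasmic reticulum is low, often together with NF-Y, which binds CCAAT. T cells that divide after activation need new membrane, and both routes are known to be switched on at that time.

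RefSeq promoters, 250 bases before to 50 after the start site in build GRCm38.p6, were on hand for 22 of the 28 genes. Among the genes with a promoter on hand, those of the 2 sterol and the 2 fatty acid genes with the largest mean change in Th0 and Th1 are shown because these genes moved together. Capitals mark CCAAT on either strand (printed ATTGG where it lies on the other strand) and TCACNCCAC, a spelling of the sterol regulatory element, also searched on both strands. The Hmgcs1 promoter is at chr13:119690101-119690400 on the plus strand, that of Cyp51 at chr5:4104648-4104947 on the minus strand, that of Fads2 at chr19:10101454-10101753 on the minus strand and that of Acaca at chr11:84195188-84195487 on the plus strand.
Hmgcs1: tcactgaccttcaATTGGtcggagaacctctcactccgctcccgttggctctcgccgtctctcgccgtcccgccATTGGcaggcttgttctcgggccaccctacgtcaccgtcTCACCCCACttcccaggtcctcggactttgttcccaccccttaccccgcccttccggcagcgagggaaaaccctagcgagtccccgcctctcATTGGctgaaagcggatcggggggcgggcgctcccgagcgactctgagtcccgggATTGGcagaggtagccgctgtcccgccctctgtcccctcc
Cyp51: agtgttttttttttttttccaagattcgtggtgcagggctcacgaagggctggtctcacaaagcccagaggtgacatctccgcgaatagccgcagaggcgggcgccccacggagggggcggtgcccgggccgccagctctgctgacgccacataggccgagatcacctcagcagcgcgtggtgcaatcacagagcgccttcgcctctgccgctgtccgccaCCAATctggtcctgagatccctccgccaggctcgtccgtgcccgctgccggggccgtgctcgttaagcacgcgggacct
Fads2: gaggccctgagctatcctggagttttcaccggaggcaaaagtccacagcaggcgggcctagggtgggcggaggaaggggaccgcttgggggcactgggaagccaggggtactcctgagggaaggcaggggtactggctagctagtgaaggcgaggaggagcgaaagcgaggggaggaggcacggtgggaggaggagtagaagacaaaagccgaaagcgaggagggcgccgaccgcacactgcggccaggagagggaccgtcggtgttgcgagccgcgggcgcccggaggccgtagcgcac
Acaca: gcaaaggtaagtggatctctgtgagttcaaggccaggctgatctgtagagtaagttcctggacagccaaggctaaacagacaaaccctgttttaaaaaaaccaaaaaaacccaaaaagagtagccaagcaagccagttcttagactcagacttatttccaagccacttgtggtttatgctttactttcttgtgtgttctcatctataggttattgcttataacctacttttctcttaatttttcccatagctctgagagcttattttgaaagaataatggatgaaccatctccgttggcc
Motifs were counted by gene, in any of its promoters on hand. CCAAT was present in all 13 sterol genes, all 3 regulators and 3 of 6 fatty acid genes (Acly, Acss2 and Fasn). It was present in 41.1% of 27025 genes with a promoter. Dhcr7 and Srebf1 had several promoters, not all with CCAAT. TCACNCCAC occurred in Hmgcs1 alone among the 22 and in 1.44% of all genes. A GC box (GGGCGG, either strand, not capitalised) occurred in 12 of 13 sterol genes, in 3 of 3 regulators and in 3 of 6 fatty acid genes, against 38.2% of all genes. CCAAT and the other motifs were not found in this window of Acaca, and Fads2 held a GC box only. No binding was measured, and some genes have further start sites.

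The array values are log2 intensities, normalised by RMA. Changes are log2 fold changes with their standard error (SE), fitted with limma over 36 samples, and a gene was called at an adjusted p under 0.05 over 13082 genes. Trim28 was at 7.86, 7.20 and 7.65 in naive KO cells and ranged from 5.51 to 6.58 in cultured KO cells, against 9.21 to 9.99 in the 18 WT samples. T cell markers averaged 10.6 to 11.4 in KO samples and 10.6 to 11.2 in WT samples. Markers of B cells averaged 4.42 to 4.72 in KO and 4.45 to 4.63 in WT samples, those of adipocytes 4.09 to 4.35 and 4.07 to 4.34, those of NK cells 3.56 to 4.50 and 3.58 to 4.34, and those of myeloid cells 4.69 to 5.78 and 4.76 to 5.39. The CD8 genes averaged 5.91 to 7.13 in KO samples and 5.63 to 6.94 in WT samples. Of these and the myeloid genes, Cd8b1 was lower in KO in Th0 (-0.59), Cd8a was higher in Treg (1.02), Adgre1 was higher in Th2 (1.10) and Itgam was higher in Th17 (0.77) and Treg (1.72). Of 2 B cell genes tested, 1 was lower in KO in Th0, 1 lower in Th1 and 1 higher in Th17. Their part in the results was not tested. Xist was high in 2 of 3 naive KO samples, in 1 of 3 naive WT samples and in no cultured sample. Comparisons with naive cells, and of KO with WT naive cells, therefore mixed samples that differ in Xist. With a sex term from Xist in the fit, 4 calls of single genes were lost and 1 was gained. KO Th0 sample 1 and KO Th1 sample 1 stood apart from the other samples of their groups, with Mki67, a proliferation marker, at 8.61 and 9.003, against 10.64 to 10.94 in the 4 other KO Th0 and Th1 samples. Counts for KO Th0 and KO Th1 are therefore also given without both. In bulk RNA, fewer cells with a transcript and less of it per cell cannot be told apart.

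In WT cells, stimulation without a named lineage (Th0) raised 27 of the 28 genes and lowered 1 relative to naive cells. Xist was high in 1 of the 3 naive WT samples and in no WT Th0 sample. Over all genes tested, 31.2% were called higher and 22.3% lower in this comparison. The median log2 fold change was 1.86 for the 16 sterol genes, 1.81 for the 8 fatty acid genes and 0.61 for the 4 regulators, against 0.04 for all genes. Centring each sample on its median moved the value for all genes to 0.17, less than the smallest of these changes.

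Fads2 and Scd1 had the widest range. Fads2, the delta-6 desaturase that starts the making of long polyunsaturated fatty acids, was at 10.69, 10.53 and 10.78 in WT Th0 cells, against 4.62, 4.56 and 4.73 in naive WT cells (6.03, SE 0.56). Scd1, the delta-9 desaturase that makes oleate from stearate, was at 9.18, 8.62 and 8.50 in WT Th0 cells, against 4.36, 4.32 and 4.19 in naive WT cells (4.48, SE 0.48). Both genes lay below the median of the table (5.26) in all naive samples, and Scd1 also in KO Th0 samples 1 and 2 and in KO Th1 sample 1. RMA values carry no detection call, so where the low side is at that level the log2 difference is no exact size and may understate the change.

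Among the sterol genes, the largest rises were in Sqle, the squalene epoxidase, and in Hmgcs1, the cytosolic HMG-CoA synthase. Sqle reached 9.93, 9.86 and 9.89 in WT Th0 cells, against 7.12, 7.04 and 6.84 in naive WT cells (2.89, SE 0.27). Hmgcs1 had 10.28, 10.08 and 10.27 in WT Th0 cells, against 7.60, 7.45 and 7.17 in naive WT cells (2.80, SE 0.22). In each of these genes every WT Th0 sample lay above every naive WT sample.

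Further along the pathway, Fdps, the farnesyl diphosphate synthase, rose by 2.43, Fdft1, the squalene synthase, by 2.35, and Mvd, the mevalonate diphosphate decarboxylase, by 2.04. The late enzyme Dhcr7, which reduces 7-dehydrocholesterol, rose by 0.87 and Tm7sf2, a sterol C14 reductase, by 0.76. Of the regulators, Stard4, a carrier of cholesterol between membranes, rose by 1.90, Srebf2 by 0.68, Srebf1 by 0.55 and Insig1, which holds SREBP back in the endoplasmic reticulum, by 0.46. The call for Insig1 was lost when naive WT sample 3 was left out (0.35). The proliferation list, 24 genes of the cell cycle, rose in 23 genes over the same step (median 4.54), and in KO cells 21 rose and 1 fell (median 2.62).

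The exception was Acss2, which makes acetyl-CoA from acetate. It was at 8.54, 8.04 and 8.34 in WT Th0 cells, against 9.25, 9.51 and 9.43 in naive WT cells (-1.09, SE 0.15, adjusted p = 8.5e-07). The other cytosolic source of acetyl-CoA, Acly, which cleaves citrate, rose by 0.65.

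In KO cells the same step was smaller. Of the 28 genes, 15 were called higher in KO Th0 than in naive KO cells and none lower, with 26.2% of all genes called higher and 14.7% lower, and with 17 of the 28 under an unadjusted p of 0.05. The medians were 0.56 for the sterol, 0.82 for the fatty acid and 0.12 for the regulator genes. Without KO Th0 sample 1 and KO Th1 sample 1, 11 sterol, 5 fatty acid and 2 regulator genes were higher, with medians of 0.66, 0.998 and 0.14. Over all genes 24.8% were then called higher.

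The difference between both genotypes was tested itself: 22 genes had a lower change in KO than in WT cells and 1, Acss2, had a higher one (0.91). Over all genes, 10.4% were called lower and 8.06% higher in this difference. Fads2 (-3.95, SE 0.79), Scd1 (-3.75, SE 0.68) and Fdps (-1.88, SE 0.39) were the lowest. Sc5d, Tm7sf2, Ebp, Fasn and Srebf2 were not called in the difference, with values between -0.49 and -0.24. Without KO Th0 sample 1 and KO Th1 sample 1, 11 sterol, 3 regulator and 6 fatty acid genes were called lower (8.02% of all genes). Mvk (-0.75) and Msmo1 (-0.69) were then not called. With KO Th0 sample 1 alone left out, Sqle (-0.84) and Elovl6 (-0.97) did not pass either, and Sqle, Msmo1 and Mvk also lost their calls without other single samples.

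**Figure D1:**
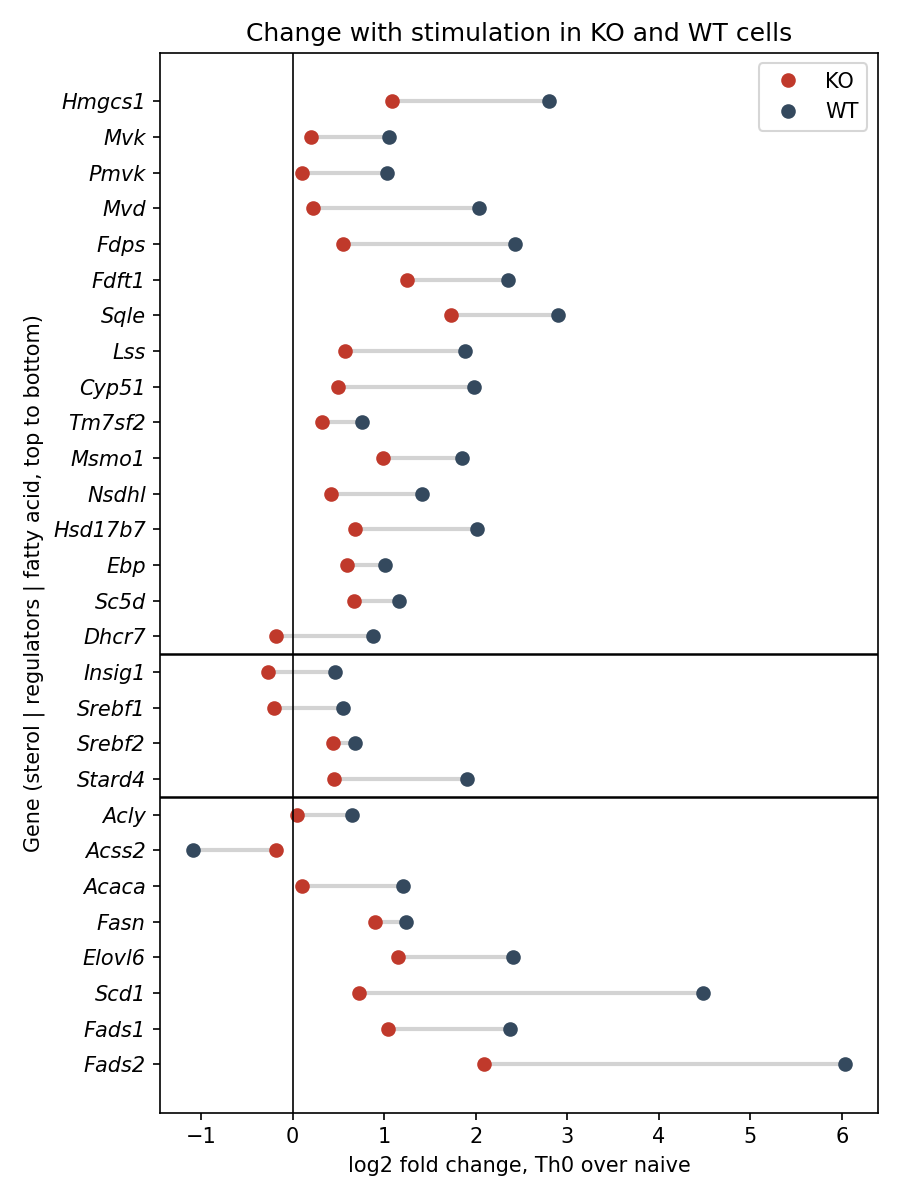
Change from naive to Th0 cells for each of the 28 genes. The x axis gives the log2 fold change of Th0 over naive cells, with red points for KO and dark points for WT cells, and lines separate sterol, regulator and fatty acid genes. For Fads2 the KO point lies at 2.09 and the WT point at 6.03, and Acss2 is the gene whose WT point lies below 0.

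Between KO and WT Th0 cells, 25 of the 28 genes were lower in KO and 1 was higher, against 19.6% lower and 16.8% higher among all genes tested. Of the sterol genes 15 of 16 fell, with a median of -1.24, of the regulators 3 of 4 (median -0.92), and of the fatty acid genes 7 of 8 (median -1.09). The median of all genes was 0.00. In 15 sterol, 4 regulator and 7 fatty acid genes every KO Th0 sample lay below every WT Th0 sample, which held for 26.2% of all genes. Tm7sf2 (-0.30, adjusted p = 0.097) and Srebf2 (-0.22, adjusted p = 0.073) did not pass.

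The values by sample begin with the early sterol genes. Hmgcs1 had 8.13, 8.79 and 8.32 in KO Th0 cells, against 10.28, 10.08 and 10.27 in WT Th0 cells (-1.79, SE 0.22, adjusted p = 8.6e-07, 3.47-fold lower). Fdps had 8.30, 9.39 and 8.99 in KO Th0 cells, against 11.18, 10.94 and 11.14 in WT Th0 cells (-2.20, SE 0.28, adjusted p = 1.0e-06, 4.59-fold lower). The KO and WT samples did not overlap in either gene, and in both KO sample 1 was the lowest.

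For the squalene and lanosterol steps, Fdft1 had 9.40, 9.97 and 9.81 in KO Th0 cells, against 11.19, 10.997 and 11.02 in WT Th0 cells (-1.34, SE 0.17). Sqle had 7.46, 8.44 and 8.43 in KO, against 9.93, 9.86 and 9.89 in WT (-1.79, SE 0.27). Lss, the lanosterol synthase that closes the sterol ring, had 7.37, 7.46 and 7.15 in KO, against 8.79, 8.72 and 8.96 in WT (-1.50, SE 0.16, adjusted p = 1.1e-07). In these genes too all KO samples lay below all WT samples, with KO sample 1 far below the other KO samples in Sqle but not in Lss.

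Of the enzymes that turn lanosterol into cholesterol, Cyp51, the lanosterol demethylase, had 6.87, 7.61 and 7.13 in KO Th0 cells, against 8.94, 8.95 and 9.13 in WT Th0 cells (-1.80, SE 0.26). Msmo1, a methyl sterol oxidase, had 7.45, 7.93 and 7.97 in KO, against 9.12, 9.10 and 9.04 in WT (-1.30, SE 0.21). Hsd17b7, a ketosteroid reductase of the same demethylation, had 7.29, 7.61 and 7.47 in KO, against 9.05, 8.86 and 8.90 in WT (-1.48, SE 0.21). The remaining steps fell less: Dhcr7 by 1.05, Nsdhl by 1.03, Sc5d by 0.67 and Ebp by 0.47, and without KO Th0 sample 1 Ebp no longer passed (-0.40).

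Among regulators, Stard4 had 6.66, 6.85 and 6.67 in KO Th0 cells, against 8.20, 7.95 and 8.20 in WT Th0 cells (-1.39, SE 0.14, adjusted p = 4.0e-08). Insig1 had 8.84, 9.07 and 8.88 in KO, against 9.99, 10.09 and 10.04 in WT (-1.11, SE 0.15). Srebf1 had 7.997, 8.18 and 7.92 in KO, against 8.90, 8.66 and 8.71 in WT (-0.72, SE 0.09, adjusted p = 9.5e-07). The 3 genes had no overlap between genotypes.

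Srebf2 had 10.85, 10.98 and 10.80 in KO Th0 cells, against 11.17, 11.02 and 11.09 in WT Th0 cells. The samples did not overlap, and the difference of -0.22 (SE 0.09) did not pass. Whether Srebf1 and Srebf2 differ in their change was not tested.

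In the fatty acid arm, Fads2 had the lowest log2 fold change of all 13082 genes in KO Th0 cells, with 5.39, 7.47 and 7.33 in KO against 10.69, 10.53 and 10.78 in WT (-3.94, SE 0.56, adjusted p = 5.0e-06, 15.3-fold lower). Scd1 had 4.52, 5.23 and 5.27 in KO Th0 cells, against 9.18, 8.62 and 8.50 in WT Th0 cells (-3.76, SE 0.48, adjusted p = 1.3e-06). The KO values of Scd1 lie at the low level named above, so this size is not exact. Fads1, the delta-5 desaturase, had 8.24, 8.47 and 8.44 in KO, against 9.93, 9.79 and 9.83 in WT (-1.46, SE 0.15, adjusted p = 4.6e-08). All 3 desaturases lay below the WT samples in every KO sample.

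The enzymes that build palmitate fell less. Acaca, the acetyl-CoA carboxylase, had 6.58, 6.95 and 6.99 in KO Th0 cells, against 8.24, 7.73 and 8.02 in WT Th0 cells (-1.15, SE 0.19). Fasn, the fatty acid synthase, had 10.16, 10.60 and 10.46 in KO, against 10.95, 10.86 and 10.95 in WT (-0.51, SE 0.17, adjusted p = 0.019). Fasn did not overlap between genotypes, but it lost its call without KO Th0 sample 1 (-0.39) and without WT Th0 sample 3 (-0.50). Acly fell by 0.73 and Elovl6, an elongase of palmitate, by 1.04.

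Acss2 again went the other way, with 9.54, 9.13 and 9.46 in KO Th0 cells, against 8.54, 8.04 and 8.34 in WT Th0 cells (1.07, SE 0.15, adjusted p = 5.5e-06, 2.10-fold higher). Every KO Th0 sample lay above every WT Th0 sample. Naive KO cells had 9.60, 9.47 and 9.60.

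Leaving out KO Th0 sample 1 and KO Th1 sample 1 left 14 sterol, 3 regulator and 6 fatty acid genes lower in KO Th0 cells and Acss2 higher, with medians of -1.11, -0.88 and -0.89. Over all genes 15.8% were then lower. Fads2 was at -3.27 and Scd1 at -3.52, so Fads2 was then not the lowest gene.

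**Figure D2:**
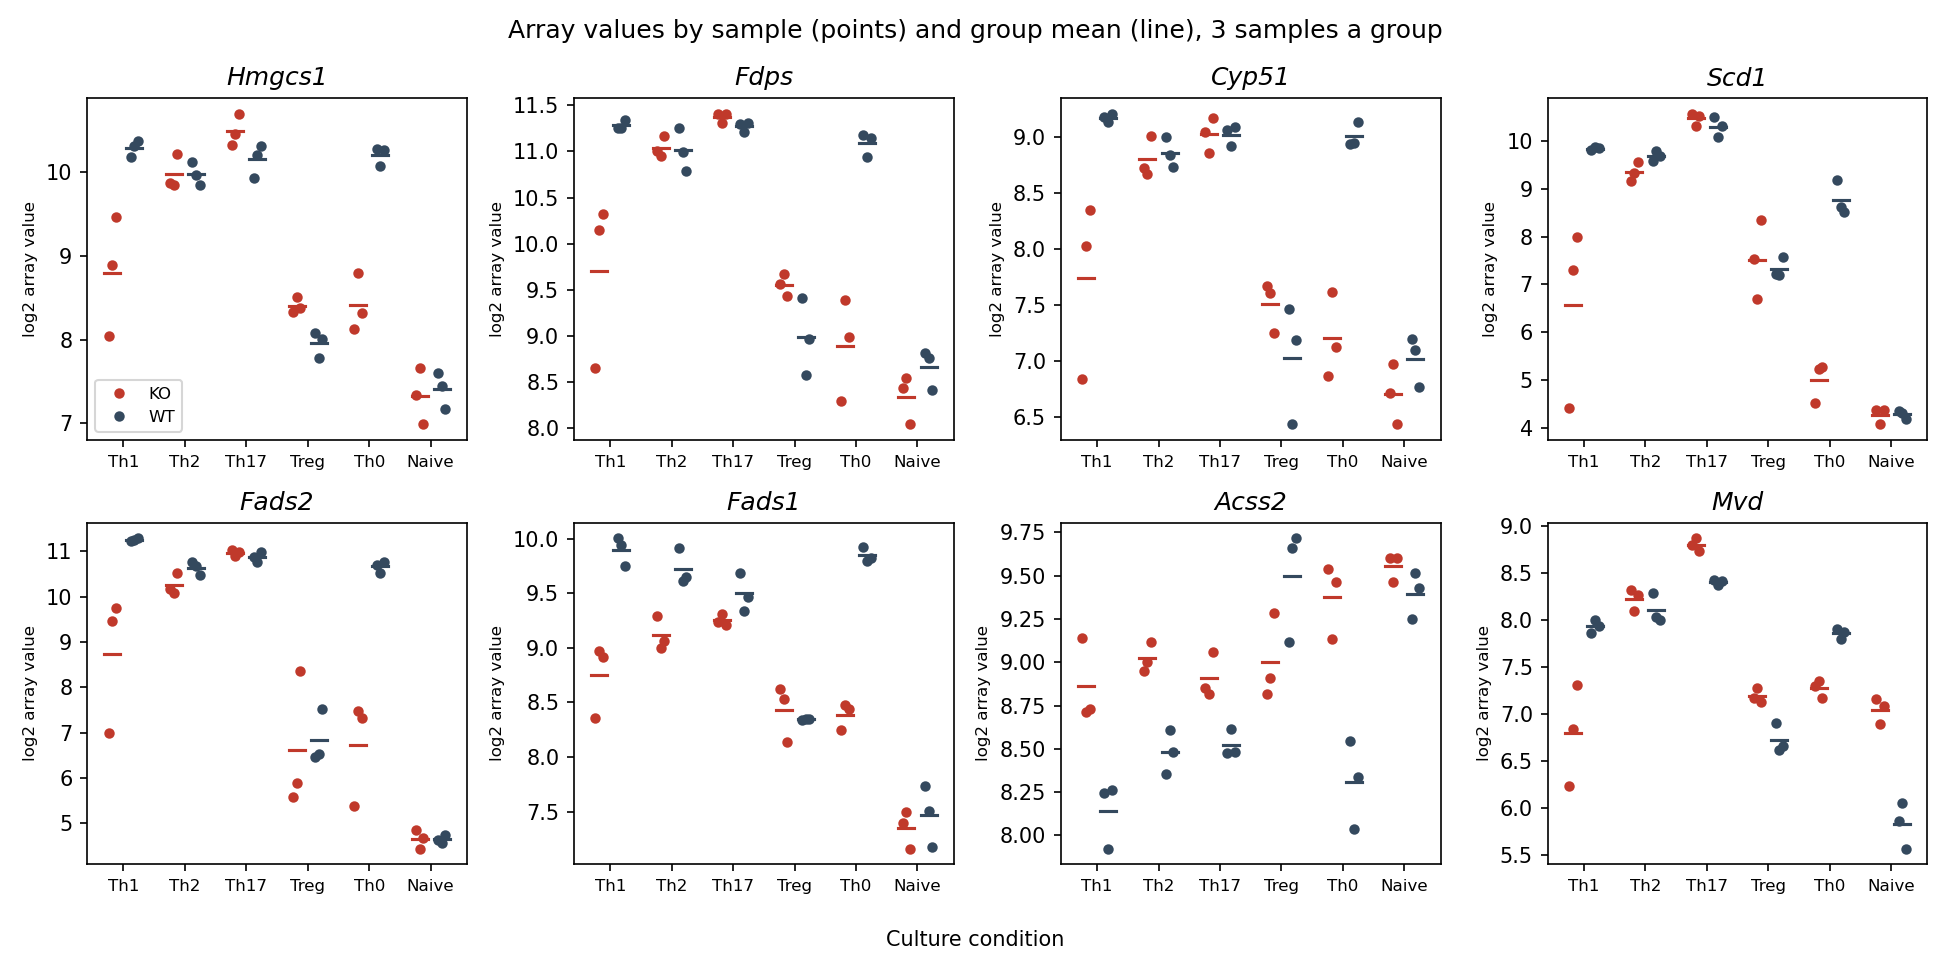
Array values of 8 genes by sample. The y axis gives the log2 array value and the x axis the culture condition, with KO samples in red to the left of WT samples in dark colour, points for samples and lines for group means. In Th0, Scd1 lies between 4.52 and 5.27 in KO samples and between 8.50 and 9.18 in WT samples, Acss2 is higher in KO, and Mvd is higher in KO among naive cells.

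In Th1 cultures 24 of the 28 genes were lower in KO and Acss2 was higher, against 23.7% lower and 17.0% higher over all genes. The sterol genes gave 15 of 16 lower (median -1.06), the regulators 3 of 4 (median -0.74) and the fatty acid genes 6 of 8 (median -0.89). Ebp (-0.33), Srebf2 (-0.11) and Elovl6 (-0.45) did not pass. All 16 sterol genes, 3 regulators and 7 fatty acid genes had every KO Th1 sample below every WT Th1 sample, which held for 29.8% of all genes.

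The KO Th1 samples were spread far wider than the WT samples. Scd1 had 4.42, 7.30 and 7.99 in KO Th1 cells, against 9.80, 9.86 and 9.85 in WT Th1 cells (-3.26, SE 0.48). Fads2 had 6.98, 9.46 and 9.75 in KO, against 11.24, 11.24 and 11.30 in WT (-2.53, SE 0.56, 5.77-fold lower). Fdps had 8.65, 10.15 and 10.32 in KO, against 11.25, 11.25 and 11.34 in WT (-1.58, SE 0.28). KO sample 1 was the lowest in all 3 genes, by more than the distance between the other KO samples.

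The remaining large sterol changes had the same order of samples. Hmgcs1 had 8.05, 8.89 and 9.46 in KO Th1 cells, against 10.18, 10.31 and 10.37 in WT Th1 cells (-1.49, SE 0.22). Cyp51 had 6.85, 8.03 and 8.35 in KO, against 9.18, 9.13 and 9.21 in WT (-1.43, SE 0.26). Sqle had 7.64, 8.81 and 9.22 in KO, against 9.84, 9.996 and 9.76 in WT (-1.31, SE 0.27). All KO samples were below all WT samples in each.

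Lss had 7.55, 8.16 and 8.41 in KO Th1 cells, against 9.28, 9.51 and 9.36 in WT Th1 cells (-1.34, SE 0.16). Stard4 had 6.42, 7.01 and 7.18 in KO, against 8.08, 8.10 and 8.21 in WT (-1.26, SE 0.14). Srebf1 had 8.48, 8.53 and 8.38 in KO, against 9.08, 9.16 and 9.03 in WT (-0.63, SE 0.09), and its KO samples lay close together. The falls of Insig1 (-0.85), Fads1 (-1.15), Acaca (-0.99) and Fasn (-0.78) also passed.

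Without KO Th0 sample 1 and KO Th1 sample 1, 15 sterol, 3 regulator and 6 fatty acid genes were still called lower in Th1 and Acss2 higher (17.9% of all genes lower), and the medians were -0.86, -0.67 and -0.70. The sizes moved: Scd1 was then at -2.19, Fads2 at -1.65, Fdps at -1.05, Sqle at -0.85 and Cyp51 at -0.98. For the difference of the KO effect in Th1 from that in Th0, none of the 28 genes passed with limma, 2 had an unadjusted p under 0.05, and 0.589% of all genes were called. With KO Th1 sample 3 left out, 1 gene was called. Same-numbered KO Th1 and KO Th0 samples deviated together (r over genes 0.70, 0.60 and 0.51), which this fit did not take into account. The Th1 and Th0 results are therefore not separate observations, and the lack of calls does not show equal KO effects.

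The proliferation list was also lower in KO Th0 and KO Th1 cells. It fell in 24 of 24 genes in KO Th0 (median -1.94) and in 24 of 24 in KO Th1 (median -1.50). It had medians of -0.63 in Th2, -0.62 in Th17 and -0.11 in Treg with no gene called, with 5, 4 and 0 genes under an unadjusted p of 0.05. Its values were below 0 in 24 of 24 genes in Th2, 24 in Th17 and 20 in Treg. There the sterol medians were 0.02, 0.16 and 0.34, and the fatty acid medians -0.34, 0.08 and 0.11. By sample, the mean of the sterol genes stood -1.43, -0.99 and -1.22 from the WT mean in KO Th0 cells, that of the fatty acid genes -1.80, -1.25 and -1.27, and that of the proliferation list -3.15, -1.09 and -1.50. In KO Th1 cells these means were -1.61, -0.91 and -0.72 for the sterol genes, -1.82, -0.92 and -0.70 for the fatty acid genes, and -2.74, -0.69 and -1.001 for the proliferation list. Sample 1 was the lowest in each of these. Without both samples numbered 1, the list fell in 24 genes in Th0 (median -1.29) and in 20 in Th1 (median -0.85). The part of proliferation in the result was not tested.

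**Figure D3:**
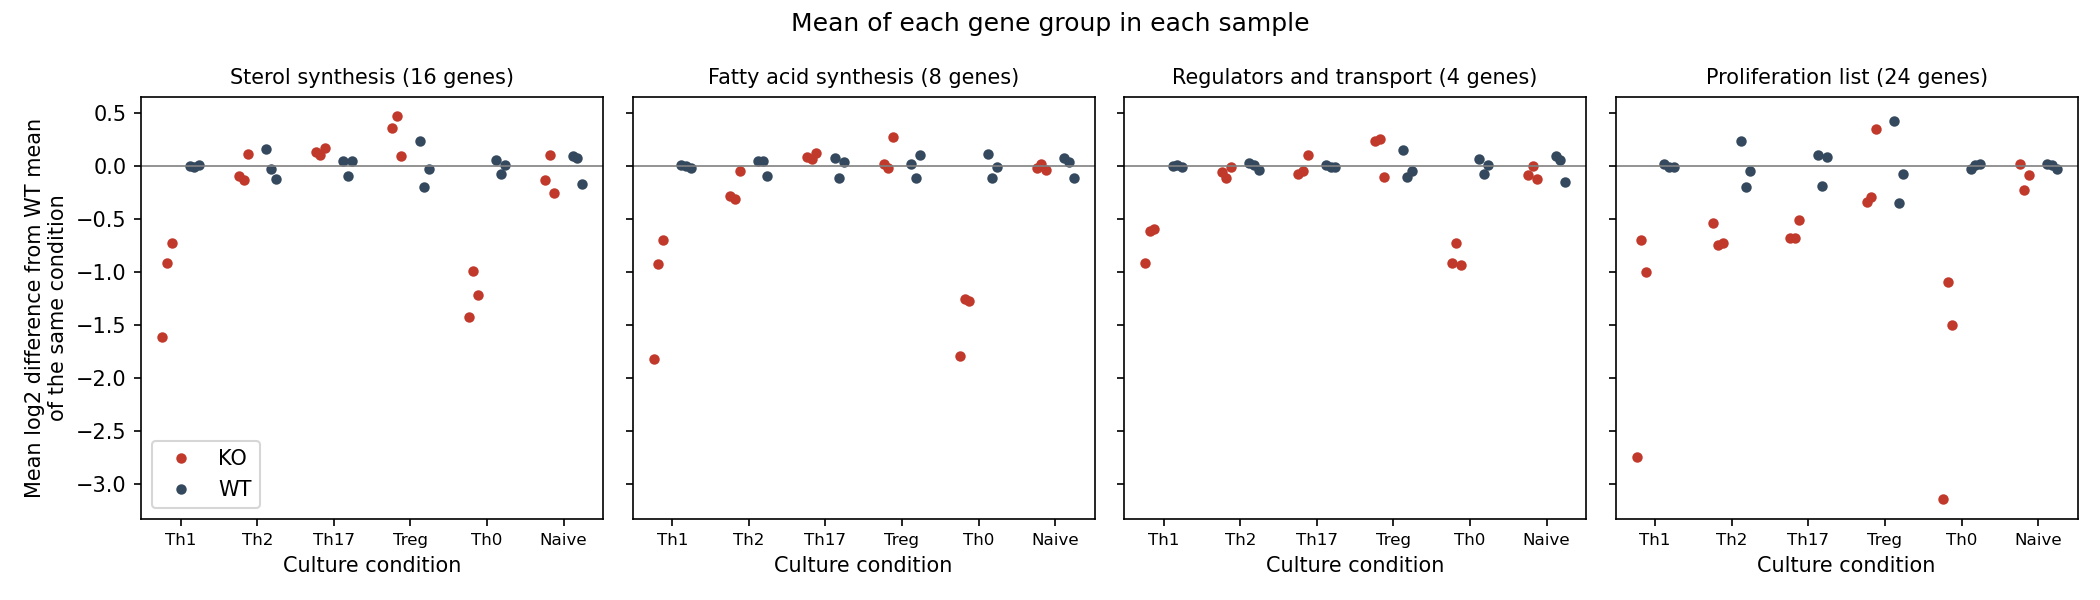
Mean of each gene group in each sample. The y axis gives the mean log2 difference from the WT mean of the same condition and the x axis the culture condition, with KO in red to the left of WT in dark colour. KO Th0 sample 1 and KO Th1 sample 1 lie lowest in the sterol, fatty acid and proliferation panels, at -3.15 and -2.74 in the last, while the sterol means of KO Th17 and Treg samples lie above 0.

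In Th2 4 genes were lower in KO and Acss2 was higher (0.54), against 8.88% lower and 7.51% higher over all genes. The lower genes were Lss (-0.78, SE 0.16), Fads1 (-0.60, SE 0.15), Acly (-0.47, SE 0.11) and Stard4 (-0.40, SE 0.14). Lss had 8.79, 8.74 and 9.18 in KO Th2 cells, against 9.59, 9.91 and 9.54 in WT Th2 cells, with no overlap.

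The median KO change in Th2 was 0.02 for the sterol genes, with 9 of 16 above 0, and -0.34 for the fatty acid genes, with 2 of 8 above 0. The contrast between the arms was not tested. Fads2 had 10.17, 10.09 and 10.53 in KO Th2 cells, against 10.76, 10.68 and 10.48 in WT Th2 cells, and Scd1 had 9.16, 9.32 and 9.56 in KO, against 9.58, 9.79 and 9.69 in WT. The Fads2 samples overlapped and the Scd1 samples did not, and neither passed. Stard4 and Acss2 lost their calls when single Th2 samples were left out, Stard4 without KO sample 1 or 2 or any 1 of the WT samples, and Acss2 without KO sample 3 or WT sample 1. Stard4 and Acly also lost theirs with the Th2 samples alone in the fit.

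In Th17 none of the 28 genes passed with limma (8.21% of all genes were called), and 3 had an unadjusted p under 0.05. The medians were 0.16 for the sterol and 0.08 for the fatty acid genes. In 8 of 16 sterol genes every KO Th17 sample lay above every WT sample, which held for 12.5% of all genes. Mvd was among the highest, at 8.80, 8.88 and 8.74 in KO Th17 cells, against 8.43, 8.37 and 8.42 in WT Th17 cells (0.40, adjusted p = 0.12). Hmgcs1 had 10.32, 10.46 and 10.70 in KO, against 9.93, 10.21 and 10.32 in WT (0.34, adjusted p = 0.41).

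In Treg Fasn alone passed, at 10.90, 10.89 and 10.30 in KO Treg cells, against 10.01, 9.89 and 10.01 in WT Treg cells (0.73, SE 0.17, adjusted p = 0.0087), where 1.71% of all genes were called higher and 2.51% lower. The genotypes did not overlap. Fasn lost its call without KO Treg sample 1 (0.63), KO Treg sample 2 (0.63) or WT Treg sample 2 (0.69). The count of 1 became 0 without KO Treg sample 1 or WT Treg sample 2, 3 without KO Treg sample 3 and 5 without WT Treg sample 1. With median centring 1 gene was higher and 1 lower. The count became 6 without KO Th0 sample 1 and KO Th1 sample 1, with Fdps (0.57), Msmo1 (0.64), Mvd (0.46) and Fdft1 (0.37) higher and Acss2 (-0.50) lower. Over all genes 1.91% were then higher and 2.81% lower. With all samples, the sterol genes had a median of 0.34 with none called and 7 of 16 under an unadjusted p of 0.05. The fatty acid genes had a median of 0.11. Fads2 had 5.58, 5.88 and 8.37 in KO Treg cells, against 6.46, 6.53 and 7.51 in WT Treg cells, and the groups overlapped.

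The KO effects in the lineages were set against that in Th0 by testing the difference. All 3 differences share the KO and WT Th0 samples, so their values are given side by side and their likeness is no result. Against Th2, 21 genes had a higher KO effect than in Th0 (14 sterol, 3 regulator and 4 fatty acid genes), with 4.97% of all genes called higher and 5.22% lower. Against Th17, 23 were higher and Acss2 was lower (-0.68), with 7.41% and 8.22% of all genes. Against Treg, 24 were higher and Acss2 was lower (-1.57), with 13.1% and 13.9%.

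Fads2 and Scd1 had the largest of these differences. Fads2 was at 3.56 (SE 0.79) for Th2, 4.03 (SE 0.79) for Th17 and 3.71 (SE 0.79) for Treg. Scd1 was at 3.42, 3.94 and 3.95 (SE 0.68 each), above Fads2 in Treg, and Fdps at 2.23, 2.30 and 2.77 (SE 0.39 each). The genes not called in Th2 were Acly, Srebf2, Sc5d, Tm7sf2, Fasn, Elovl6 and Acss2. The medians of the sterol genes were 1.25, 1.31 and 1.65, and those of the fatty acid genes 0.78, 1.16 and 1.32. Without KO Th0 sample 1 and KO Th1 sample 1 the count of higher sterol genes was 13 in each, and Acss2 (-0.60) was not called against Th17. Over all genes 3.67%, 5.73% and 10.8% were then called higher. The proliferation list had 2, 1 and 19 of 24 genes called higher in the same differences. Its medians were 1.24, 1.33 and 1.82, with 24 of 24 values above 0 in each. Under an unadjusted p of 0.05 were 17, 18 and 24 of its genes. The part of proliferation in these differences was not tested.

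**Figure D4:**
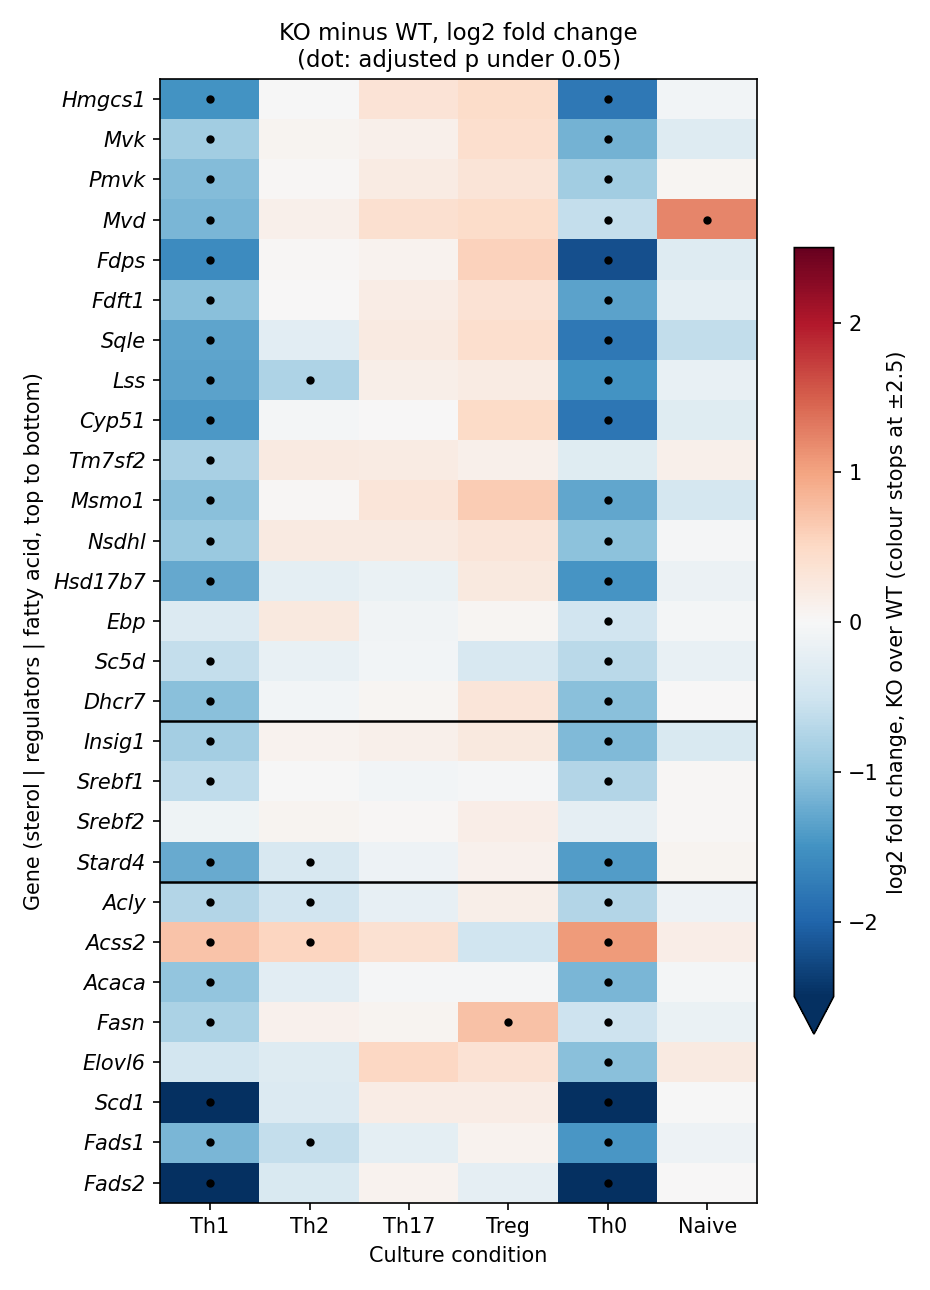
KO minus WT log2 fold change of the 28 genes in 6 conditions. Each row is a gene, grouped as sterol, regulator and fatty acid, each column is a condition, blue is lower and red higher in KO, and dots mark an adjusted p under 0.05. Th0 and Th1 carry 26 and 25 dots, Th2 5, Th17 0, Treg 1 and naive cells 1.

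Averaged over the 6 conditions, 21 genes were lower in KO and Acss2 was higher (0.40), against 27.5% lower and 18.9% higher over all genes. Scd1 (-1.17), Fads2 (-1.16) and Fads1 (-0.58) were the lowest, and Elovl6, Ebp, Fasn, Tm7sf2, Srebf2 and Mvd did not pass. This average is no change shared by all conditions. By condition, 25 genes were called lower in Th0, 24 in Th1, 4 in Th2 and 0 in naive, Th17 and Treg cells. Without KO Th0 sample 1 and KO Th1 sample 1, 13 sterol, 3 regulator and 5 fatty acid genes were lower on average. Mvd (0.12) was then called higher, as was Acss2 (0.36), with 25.7% of all genes lower and 16.4% higher.

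In naive cells the median KO change was near that of all genes (-0.02), with medians of -0.17 for the sterol, 0.03 for the regulator and -0.03 for the fatty acid genes. Mvd alone passed, where 0.948% of all genes were called higher and 0.199% lower. It was at 7.17, 6.89 and 7.09 in naive KO cells, against 5.87, 6.05 and 5.57 in naive WT cells (1.22, SE 0.16, adjusted p = 5.0e-06, 2.33-fold higher). The groups did not overlap, and 4 of the 28 genes had an unadjusted p under 0.05. Xist was high in 2 of the 3 naive KO and in 1 of the 3 naive WT samples.

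Mvd was at 7.30, 7.36 and 7.17 in KO Th0 cells, so that its change with stimulation was 0.23 (SE 0.16) in KO cells and 2.04 (SE 0.16) in WT cells. In RefSeq Mvd lies beside Snai3, a zinc-finger transcription factor gene, which was picked after its values were seen. Snai3 was at 9.36, 9.51 and 9.38 in naive KO cells, against 5.96, 6.19 and 5.62 in naive WT cells, with no overlap (3.49, adjusted p = 7.6e-11). In KO against WT, Snai3 changed by 2.70 in Th0, 1.94 in Th1, 0.997 in Th2, 0.01 in Th17 and 2.24 in Treg, where Mvd changed by -0.59, -1.14, 0.12, 0.40 and 0.46 and was called in Th0 and Th1. Rnf166, the gene past Snai3, also named after its values were seen, changed by 0.52 in naive cells, 1.11 in Th0 and 0.95 in Th1. It changed by 0.40 in Th2, -0.02 in Th17 and 0.49 in Treg, and was called in Th0, Th1 and Treg. Cyba, the neighbour of Mvd on the other side, had a change of 0.20 in naive cells (adjusted p = 0.59). Cyba was called in Th0 alone, where it was lower in KO (-0.32, adjusted p = 0.0076). The Mvd promoter, chosen after its values were seen, is at chr8:122443373-122443672 on the minus strand and holds CCAAT once on each strand, shown with the same capitals.
Mvd: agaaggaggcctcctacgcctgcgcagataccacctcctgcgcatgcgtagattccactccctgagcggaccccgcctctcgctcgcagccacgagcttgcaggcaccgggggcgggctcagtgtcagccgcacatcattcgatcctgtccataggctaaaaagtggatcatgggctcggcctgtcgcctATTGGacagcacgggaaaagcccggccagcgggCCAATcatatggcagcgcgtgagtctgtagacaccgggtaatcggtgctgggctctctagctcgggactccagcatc

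The Acss2 promoter, likewise chosen afterwards and shown because Acss2 was the 1 gene called in the opposite direction in WT Th0 against naive cells and in KO against WT in Th0 and Th1, is at chr2:155517793-155518092 on the plus strand and holds 1 CCAAT on the other strand.
Acss2: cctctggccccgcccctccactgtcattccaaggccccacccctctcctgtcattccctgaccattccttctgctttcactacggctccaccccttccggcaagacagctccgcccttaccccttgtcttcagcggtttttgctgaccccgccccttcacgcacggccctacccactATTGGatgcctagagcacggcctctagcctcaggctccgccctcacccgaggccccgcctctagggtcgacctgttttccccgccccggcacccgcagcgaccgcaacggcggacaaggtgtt

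Against WT Th0, WT Th1 had 3 genes higher (Lss 0.56, Pmvk 0.51 and Srebf1 0.33) and none lower, with 5.43% and 5.40% of all genes called. That count became 0 without WT Th0 sample 2 or WT Th1 sample 2, and 1 without WT Th0 sample 1. Pmvk encodes the phosphomevalonate kinase.

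WT Th2 had 3 genes higher (Lss 0.86, Insig1 0.47 and Srebf1 0.33) and 3 lower (Ebp -0.51, Acaca -0.51 and Tm7sf2 -0.38), with 17.2% and 22.9% of all genes called, and 3 genes in all without WT Th2 sample 3. Leaving out KO Th0 sample 1 and KO Th1 sample 1 changes only the shared estimate of the spread here, and 12 were then called. The split also moved with scaling, to 5 higher and 1 lower after quantile normalization and 7 higher and 1 lower after cyclic loess. WT Th17 had 8 higher and none lower, with 20.3% and 18.8% of all genes, and 5 without WT Th17 sample 3. Scd1 was at 10.49, 10.08 and 10.30 in WT Th17 cells, against 9.18, 8.62 and 8.50 in WT Th0 cells, with no overlap (1.52, SE 0.48). The 4 WT comparisons share the WT Th0 samples.

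In WT Treg cultures 26 of the 28 genes were lower than in WT Th0 and Acss2 was higher (1.19, SE 0.15), against 22.4% lower and 19.2% higher over all genes. The medians were -1.37 for the sterol, -0.81 for the regulator and -1.02 for the fatty acid genes. Fads2 was at 6.46, 6.53 and 7.51 in WT Treg cells, against 10.69, 10.53 and 10.78 in WT Th0 cells (-3.84, SE 0.56, 14.3-fold lower). Hmgcs1 was at 8.09, 7.78 and 8.01 in WT Treg cells, against 10.28, 10.08 and 10.27 in WT Th0 cells (-2.25, SE 0.22), and in both genes the groups did not overlap. Sc5d, the sterol C5 desaturase, was not called (0.01). The calls of Tm7sf2 (-0.33) and Scd1 (-1.24) were lost without WT Th0 sample 1. The proliferation list fell in 24 of 24 genes here too (median -2.23), and its part in the result was not tested.

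**Figure D5:**
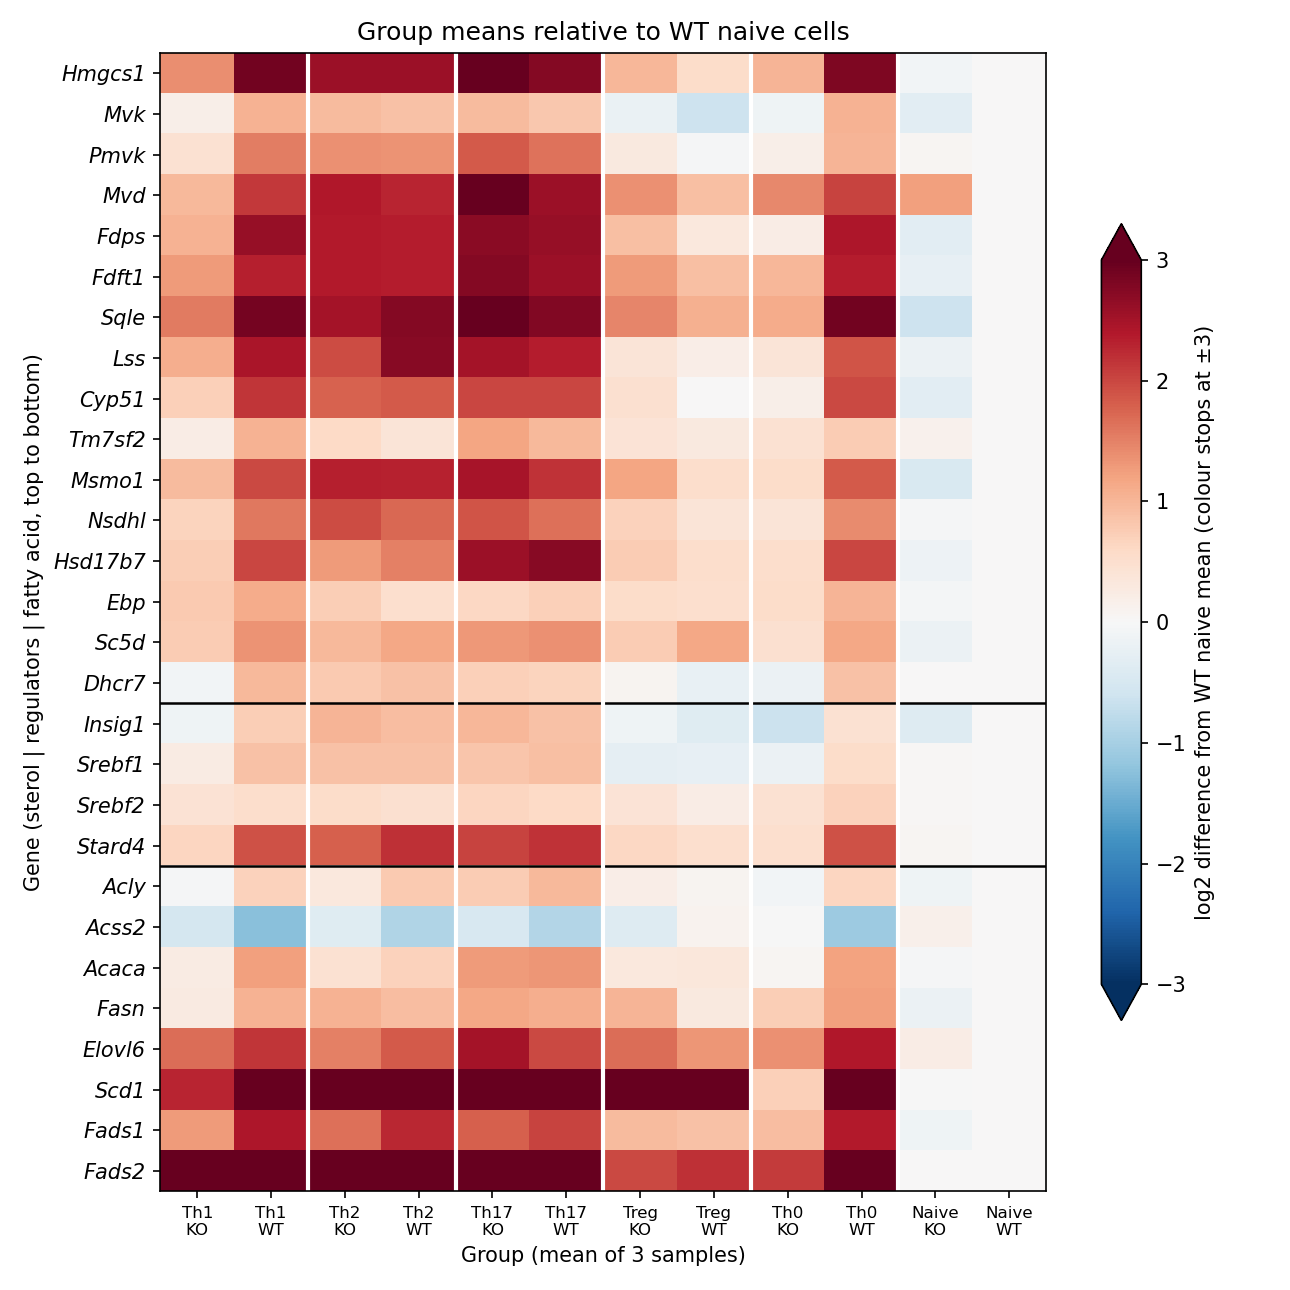
Group means of the 28 genes relative to WT naive cells. Each row is a gene and each column a group, with KO to the left of WT in each condition, and colour gives the log2 difference from the WT naive mean. The WT Th1, Th2, Th17 and Th0 columns are red for most genes, with a mean over the sterol genes of 1.88, 1.72, 1.90 and 1.72, against 0.40 in WT Treg, 0.51 in KO Th0 and 0.79 in KO Th1 cells.

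Other genes of lipid metabolism, from lists that hold none of the 28, were read in the same fit. Over all genes, as above, 16.8% were called higher and 19.6% lower in KO Th0, and 17.0% and 23.7% in KO Th1. Counts without KO Th0 sample 1 and KO Th1 sample 1 are given after each, an alternative chosen after seeing the data. Over all genes 13.1% were then higher and 15.8% lower in KO Th0, and 11.7% and 17.9% in KO Th1. Of 4 further sterol genes tested, Tmem97, a sterol-binding protein gene of the endoplasmic reticulum, fell by 2.10 in KO Th0 and by 1.49 in KO Th1, and Npc2, a lysosomal cholesterol carrier, rose by 0.30 in KO Th1. Without both samples Tmem97 was at -1.89 and -1.03, and Npc2 (0.27) was not called. Tmem97 had 7.15, 8.01 and 7.55 in KO Th0 cells, against 9.69, 9.63 and 9.70 in WT Th0 cells, with no overlap.

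Of 6 genes linked to LXR, a receptor that senses oxysterols, drives cholesterol export and also induces Srebf1, 5 rose and 1 fell in KO Th0, and 3 rose and 1 fell in KO Th1. Without both samples 3 rose and 1 fell in each, and Abcg1 (0.41) and Nr1h3 (0.27) were not called in Th0. In Th2 3 rose and none fell, with 7.51% of all genes higher and 8.88% lower. In Th17 1 rose and none fell, with 8.21% of all genes called. In Treg 1 fell and 5 of 6 values were below 0, with 1.71% of all genes higher and 2.51% lower. Abca5, an ABC transporter, rose by 2.57, Abca1, the cholesterol exporter, by 1.40, Mylip, which degrades the LDL receptor, by 0.81, and Abcg1 and Nr1h3, named after their values were seen, by 0.45 each, while Lpcat3 fell by 0.53. Abca1 had 7.80, 7.35 and 7.36 in KO Th0 cells, against 6.09, 5.97 and 6.26 in WT Th0 cells. Those samples did not overlap. In Treg Abca1 fell by 1.29, with 6.88, 6.29 and 8.10 in KO cells, against 7.37, 8.94 and 8.83 in WT cells, which overlapped. Abca5 also passed in Th1 (2.35), Th2 (3.17) and Th17 (1.54).

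Of 15 other genes of fatty acid synthesis and elongation, 6 were lower in KO Th0 and 10 in KO Th1, with none higher, and medians of -0.18 and -0.41. Without both samples 6 and 9 were lower. In Th2 3 were higher and 1 lower, with 7.51% and 8.88% of all genes. In Th17 2 were higher and none lower, with 8.21% of all genes called. Hsd17b12, an elongation enzyme (-0.88 and -0.73), Mid1ip1, an activator of acetyl-CoA carboxylase (-0.83 and -0.63), and Slc25a1, the mitochondrial citrate carrier (-0.66 and -0.72), passed in both, and Me1, the malic enzyme, passed in Th1 (-0.88). Of 9 genes that activate fatty acids or build glycerolipids, Acsl5 was the lowest in Th0 (-1.09) and Th1 (-0.90), with 3 lower in each and 1 higher in Th0. The counts were the same without both samples, with Acsl5 at -0.83 and -0.66.

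Of 15 genes of fatty acid oxidation, 3 were higher and 3 lower in KO Th0, and 2 higher and 4 lower in KO Th1, with medians of -0.04 and -0.18, shares near those of all genes. Without both samples 3 were higher and 2 lower in Th0, and 1 higher and 3 lower in Th1. Acadm, the medium-chain acyl-CoA dehydrogenase, was higher in KO in all 6 conditions, by 0.45 in naive cells, 1.46 in Th0, 1.45 in Th1, 2.13 in Th2, 1.65 in Th17 and 1.22 in Treg. It had 10.95, 10.95 and 10.80 in KO Th0 cells, against 9.56, 9.26 and 9.52 in WT Th0 cells. Its groups did not overlap there, and without both samples it was at 1.43 in Th0 and 1.44 in Th1.

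Of 6 genes that process SREBP or degrade its partners, 2 were higher and 1 lower in KO Th0, and 3 higher and 1 lower in KO Th1. The counts became 2 higher and 1 lower in Th0, and 1 higher and 1 lower in Th1, without both samples. Rnf139 (0.44) and Mbtps1 (0.36) were the higher genes in Th0. Marchf6, a ubiquitin ligase of the endoplasmic reticulum that targets squalene epoxidase, was lower in KO in all 6 conditions, by 0.49 in Th17 to 0.93 in Treg. Without both samples Marchf6 was at -0.73 in Th0 and -0.90 in Th1, and Scap at 0.40 in Th1, all called. Scap, the SREBP escort, rose in KO by 0.28 in Th1, 0.58 in Th2 and 0.96 in Th17, and had 9.70, 9.82 and 9.78 in KO Th17 cells, against 8.86, 8.71 and 8.84 in WT Th17 cells, with no overlap. In Th0 Scap had 9.10, 9.10 and 9.35 in KO cells, against 9.06, 9.17 and 9.28 in WT cells, which overlapped.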

How the data were processed

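Total RNA of sorted CD4 T cells was biotin-labelled and read on Affymetrix arrays, per the labels' protocols. Per the submitters' processing notes, the authors obtained the deposited log2 values by RMA, using oligo under R 3.1.0. The deposited log2 values were used without further scaling, for 41345 probe sets and 36 samples. Probe sets with 1 symbol gave 22180 genes, the highest-mean one where there were several, and 13082 genes above 5.26 (the table's median) in at least 3 samples were tested.

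limma 3.58.1 in R 4.3.3 was fitted with a mean for each of 12 groups. Each of 18 comparisons had its own Benjamini-Hochberg adjustment, at 0.05. The number of arrays, 3 a group, limits the precision. The members and lists were chosen with earlier results of these data known. All 28 members could be named, and those with a KO change of at least 2-fold were given by sample, up to 12, with Srebf1, Srebf2, Insig1, Fasn and Acaca added; Mvd and Acss2 were added after their values were seen. Steps were tested on simulated data.

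Same-numbered samples were taken to deviate together where each r over genes was above 0.1. This held for WT Th1 with Th0 (0.39, 0.33 and 0.23) and WT Th2 with Th0 (0.25, 0.12 and 0.11). It also held for KO Th1 with Th0 (0.70, 0.60 and 0.51) and KO Treg with Th0 (0.23, 0.13 and 0.30). KO with WT did not meet this rule in any condition, with Th2 the nearest (0.40, 0.04 and 0.23). No samples were duplicates (highest correlation 0.993). Alternatives were other filters, scalings, priors, blocks, a sex term from Xist, fits of only the groups compared, and left-out samples.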

Additional observations from a re-analysis of the deposited data

Results flagged for a closer look

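The KO effect differed between conditions by the test of the difference itself, and these results are listed as values. Between Th0 and naive cells 23 of the 28 genes differed, with Acss2 at 0.91, Fads2 at -3.95, Scd1 at -3.75 and Fdps at -1.88. Between Th2 and Th0 21 differed, with Fads2 at 3.56, Scd1 at 3.42 and Fdps at 2.23. Between Th17 and Th0 24 differed, with Fads2 at 4.03, Scd1 at 3.94, Fdps at 2.30 and Acss2 at -0.68. Between Treg and Th0 25 differed, with Scd1 at 3.95, Fads2 at 3.71, Fdps at 2.77 and Acss2 at -1.57. Over all genes, 8.06% were called higher and 10.4% lower between Th0 and naive cells. Against Th0 these shares were 4.97% and 5.22% for Th2, 7.41% and 8.22% for Th17, and 13.1% and 13.9% for Treg. All 4 differences share the KO and WT Th0 samples, and the proliferation list fell in KO Th0 cells in 24 of 24 genes. Its part in these differences was not tested.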

How the results depend on the processing

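Of 260 calls of single genes, none was reversed, 20 were lost under at least 1 alternative that kept all the groups' samples or left out both KO samples numbered 1, and 33 were lost without 1 sample. A further 47 results of single genes passed only under an alternative, left-out samples included. The counts of Th0 (26) and Th1 (25) stayed within 1.5 times under all alternatives run. With only the groups compared in the fit, the Th2 count was 3 (5 with all groups), the Th17 count 3 (0), the Treg count 0 (1) and that of WT Th1 against Th0 6 (3). Without KO Th0 sample 1 and KO Th1 sample 1, Th17 had 1, Treg 6 and WT Th2 against Th0 12 (6). Quantile normalization again and median centring each gave 2 in Treg. With each sample left out in turn, Treg ranged from 0 to 5, WT Th1 from 0 to 2, WT Th2 from 3 to 7 and WT Th17 from 5 to 8, and the Th1 against Th0 comparison of KO effects from 0 to 1. The other counts of genes stayed within 1.5 times. Medians near 0 moved more: that of the sterol genes ranged from -0.26 to -0.07 in naive cells, from -0.08 to 0.08 in Th2, from 0.10 to 0.22 in Th17 and from 0.22 to 0.45 in Treg, and that of the fatty acid genes from -0.09 to 0.01 in naive cells, from -0.00 to 0.13 in Th17 and from 0.08 to 0.20 in Treg. The cause was not tested. The replicate number as a block gave 26 genes in Th0, 25 in Th1, 3 in WT Th1 and 6 in WT Th2, and it changed no call. That block was shared by all groups, so it cannot stand for the pairing within a genotype. KO with WT samples did not pass the rule for deviating together in any condition. A random block by genotype and number kept all 260 calls and added 2. It used 1 correlation (0.06) for all genes and groups. Array signal limits the low genes, such as Scd1 and Fads2 in naive cells.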
